A study of Homo sapiens with 8 samples.

Results

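CSF3 and 9 further genes of secreted inflammatory proteins (CSF2, IL6, IL1A, IL1B, CXCL1, CXCL2, CXCL3, IL8 and CCL20) were followed through 4 human cancer cell lines on 8 2-colour Agilent arrays. They were found by their gene names in the array design, where IL8 appears as CXCL8, and they made up 10 of 43317 genes and 14 of 58201 probes. The genes were selected on values of these same arrays, namely the ratios of treated over mock RNA and the mock levels, so all of those values are descriptions and carry no test. Each array compared Cy5-labelled RNA of treated cells with Cy3-labelled RNA of mock cells, which the labels give as not transfected. The PC3 line (prostate cancer) received bisamide, a small-molecule ligand of the nuclear protein pirin, for 24 h or 48 h, or the microRNA (miRNA) miR-125b-1-3p. C4-2 (prostate cancer) received miR-199-3p, 786-O (renal cancer) received miR-532-5p or miR-532-3p, and T24 (bladder cancer) received miR-140-5p or miR-140-3p. The miRNAs were introduced with a lipid reagent and the labels give no time for them. Each of the 8 groups held 1 array, no array had its dyes swapped, and no array carried cells transfected with a control RNA, so an effect of transfection and an effect of a miRNA cannot be told apart within an array.

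These genes encode messengers that recruit and activate white blood cells. CSF3 (granulocyte colony-stimulating factor) drives the production of neutrophils, and CSF2 (granulocyte-macrophage colony-stimulating factor) acts on granulocytes and macrophages. IL6, IL1A and IL1B are broadly acting interleukins of the acute inflammatory response, CXCL1, CXCL2, CXCL3 and IL8 are chemokines that attract neutrophils through the receptor CXCR2, and CCL20 attracts cells that carry CCR6. Their transcription is commonly switched on by NF-kappaB together with AP-1 and C/EBP factors, and many of their mRNAs carry AU-rich elements that shorten their life. Many carcinoma lines secrete them without any immune cell present.

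The miRNAs are shown because the arrays of the same line differed by the strand that was introduced. A miRNA pairs with its targets mainly through its seed, bases 2 to 8, which stands in capitals in the mature sequences (RefSeq, GRCh38.p14).
miR-140-5p: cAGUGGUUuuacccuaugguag
miR-140-3p: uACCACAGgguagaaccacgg
miR-532-5p: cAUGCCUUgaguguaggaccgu
miR-532-3p: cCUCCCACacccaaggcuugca
miR-125b-1-3p: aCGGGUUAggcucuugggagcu
miR-199-3p: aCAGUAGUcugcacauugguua
No seed was shared among the 6. The label miR-199-3p does not say which of miR-199a-3p and miR-199b-3p was used, and their mature sequences are the same.

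The arrays gave median raw intensities of 22.7 to 24.9 in Cy3 and 18.7 to 23.1 in Cy5, close to background, so the precision of a ratio depends on how far a probe stands above it. Every member probe had 1 spot on an array. The 300 probes spotted 10 times had a median standard deviation of 0.0389 to 0.0527 on the log2 scale within an array, which covers spot error only. In C4-2 all 7 prostate markers were well above background, in 786-O 4 of 6 renal markers were, and in T24 only UPK1A among 7 urothelial markers was, so the bladder label of T24 was not borne out by these markers. Of 8 leukocyte markers 3 or 4 were well above background in the mocks of each line, their summed raw Cy3 intensity lay between 288 and 434 in all lines, and ITGAM, CD2 and MS4A1 were not above background in all mocks of any line. The part of these markers in the cytokine levels was not tested.

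Before any treatment, T24 held the highest levels of CSF3, CXCL1, CXCL2, CXCL3 and CCL20, 786-O the highest level of CSF2, and C4-2 no member well above background. Mock levels are log2 Cy3 levels after normalization within and between arrays, and they are compared for the same probe only. Of 2 lines the higher is called so where the ranges over their arrays do not overlap and the gap exceeds the widest range within a line. The labels do not say whether the mocks of a line were separate cultures, and the deposited names of both 786-O arrays carry a code in common, as do those of both T24 arrays, so a range within a line may be technical. In bulk RNA, fewer expressing cells and less mRNA per cell cannot be told apart.

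**Figure D1:**
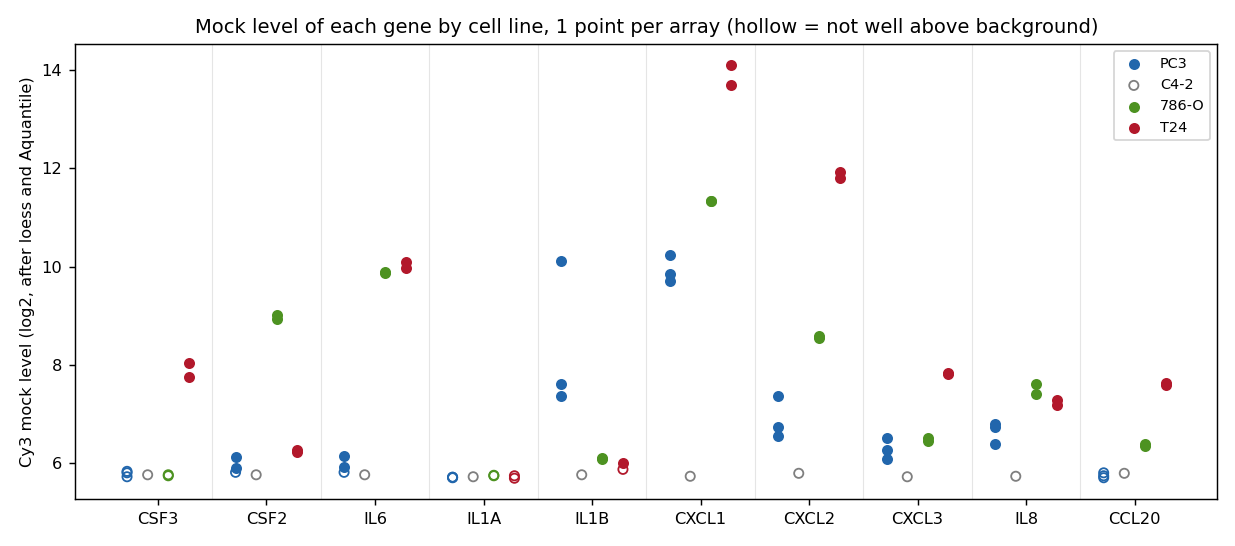
Cy3 mock level (log2) of each gene in PC3 (3 arrays), C4-2 (1 array), 786-O (2 arrays) and T24 (2 arrays), 1 point per array, with hollow points not well above background. The T24 points lie above all others for CSF3, CXCL1, CXCL2, CXCL3 and CCL20, and 1 PC3 mock stands apart for IL1B.

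The CSF3 probe of higher signal read 7.75 and 8.04 in the T24 mocks, with raw intensities of 179 and 209, and was not well above background in any mock of the other lines, where raw intensities were 21.1 to 25.5. The T24 level was at least 4.19-fold above PC3, 3.89-fold above C4-2 and 4.23-fold above 786-O. This bound sets the T24 mean against the higher of the probe's own level and the lowest level well above background. At the second CSF3 probe, with raw intensities of 35.8 and 47.8 in the T24 mocks, the bounds were 1.34-fold, 1.25-fold and 1.36-fold. CCL20 was highest in T24 too, with mocks at 7.59 and 7.64 against 6.36 and 6.39 in 786-O, a 2.37-fold difference. No mock of PC3 or C4-2 was above background for CCL20. T24 was at least 3.45-fold above PC3 and 3.21-fold above C4-2 for CCL20.

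CXCL1 was well above background in 3 lines and was ordered without overlap. The T24 mocks read 13.69 and 14.10, both 786-O mocks 11.33, and the PC3 mocks 9.70, 9.84 and 10.23. T24 was thus 5.91-fold above 786-O, and 786-O was 2.82-fold above PC3, while T24 was at least 249-fold above C4-2. The step between 786-O and PC3 depended on the scaling between arrays. Raw intensities overlapped, at 1196 and 1227 in 786-O and 982 to 1447 in PC3. Scaled to the 75th percentile of each array instead, the log2 medians were 4.05 and 3.33, a narrower step. The second CXCL1 probe gave the same order, with 6.97-fold between T24 and 786-O and 2.00-fold between 786-O and PC3. Its raw intensities also overlapped, at 214 and 231 in 786-O and 212 to 340 in PC3.

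CXCL2 followed that order as well, with T24 at 11.80 and 11.93, 786-O at 8.54 and 8.59, and PC3 at 6.55, 6.75 and 7.38. The steps were 9.85-fold and 3.52-fold. Raw intensities were 164 and 167 in 786-O and 63.7 to 164 in PC3. Scaled to the 75th percentile, the medians of 786-O and PC3 were 1.4 and 0.17. The second CXCL2 probe gave the same order, with steps of 7.26-fold and 2.1-fold. Its raw intensities overlapped, at 121 and 136 in 786-O and 94.7 to 172 in PC3, and its scaled medians were 1.09 and 0.55. For CXCL3, T24 was 2.52-fold above 786-O, whereas 786-O and PC3 were not separated. These 3 chemokine genes lie in 1 cluster on chromosome 4 and encode closely related proteins, and the lower CXCL2 probe shared 32 of 37 overlapping bases (86.5%) with the lower CXCL1 probe, so those 2 probes may share signal. No other pair among the 91 pairs of member probes matched at more than 58.8% over 30 bases or longer.

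The interleukins and CSF2 had other orders. IL6 read 9.97 and 10.10 in T24 and 9.86 and 9.88 in 786-O, a 1.12-fold difference that did not exceed the range within a line, and 786-O was 15.3-fold above PC3. That likeness of T24 and 786-O depended on the scaling. Raw IL6 intensities were 889 and 1014 in T24 and 424 and 436 in 786-O, and medians scaled to the 75th percentile were 3.36 and 2.62. CSF2 read 8.93 and 9.01 in 786-O, 6.57-fold above T24. IL8 read 7.42 and 7.62 in 786-O, 7.19 and 7.28 in T24, and 6.39 to 6.81 in PC3, and neither neighbouring pair was separated. Scaled to the 75th percentile, the IL8 medians of 786-O and T24 were 0.55 and 0.59.

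IL1B had its highest mock levels in PC3, but the 3 PC3 mocks read 7.38, 7.62 and 10.12, with raw intensities of 152, 192 and 1349. The highest was the mock of the miR-125b-1-3p array, and the range of 2.74 within PC3 was wider than any gap between lines. IL1A was not well above background in either channel of any of the 8 arrays, with raw Cy5 intensities of 13.9 to 16.7, so no ratio of it is read.

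The ratios are log2 values of Cy5 over Cy3 after background correction with an offset and loess within the array. The offset pulls the ratios of dim probes towards 0. A gene counted as higher or lower where the scanner flagged it well above background in Cy3 and in Cy5 and its log2 ratio passed 1.0 or −1.0, a rule of size and not a test. Across the arrays the median of all genes measured in both channels lay between −0.00017 and 0.017.

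**Figure D2:**
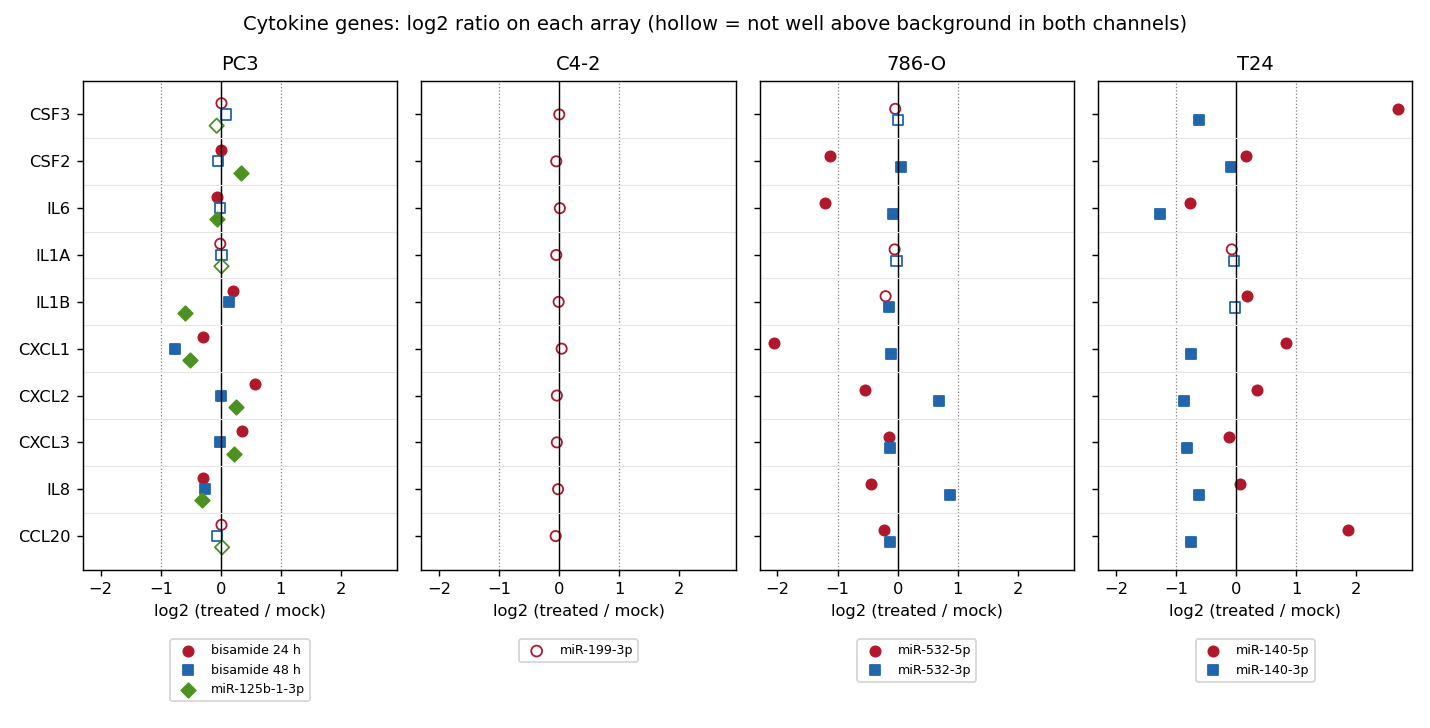
Log2 ratio of treated over mock RNA of each gene on each array, with 1 panel per cell line and 1 marker shape per treatment (hollow: not well above background in both channels; dotted lines at −1 and 1). CSF3 and CCL20 stand at the right of the T24 panel with miR-140-5p, and CXCL1, IL6 and CSF2 at the left of the 786-O panel with miR-532-5p.

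In T24 transfected with miR-140-5p, CSF3 and CCL20 were higher and CXCL1 leaned the same way, while IL6 was on the other side of 0. Of 9 members measured in both channels 2 passed the rule upwards and none downwards, beside 0.119% of all 17624 measured genes upwards and 0.323% downwards. The rule for choosing the genes used this contrast, so nothing is read from that excess. The members' median was 0.19, and 7 lay above 0 and 2 below, beside 47.6% of all genes below 0.

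CSF3 had the highest log2 ratio of all 17624 genes on this array. Its brighter probe (GRCh37 chromosome 17, 38173710 to 38173769) had a raw intensity of 209 in the mock and 2529 after miR-140-5p, a log2 ratio of 2.70 or 6.48-fold. The second CSF3 probe (38173251 to 38173310) read 47.8 and 259, a log2 ratio of 1.48 or 2.79-fold. Both probes were thus higher, and the dimmer probe gave the smaller ratio. Without the offset the 2 probes gave 2.95 and 2.42, a narrower gap.

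CCL20 (GRCh37 chromosome 2, 228681100 to 228681836) ranked 4th among all genes, with raw intensities of 155 in the mock and 1024 after miR-140-5p, a log2 ratio of 1.86 or 3.64-fold. CXCL1 ranked 38th, at 0.84, with raw intensities of 9298 and 39312, and its second probe read 0.73. It did not pass 1.0 as reported. CXCL1 read 2.03 with median centring, where the median of all genes stood at 0.35. After subtraction of its median over the other arrays it read 1.24. Under the remaining alternative values it did not pass, from 0.73 with the scanner's ratio to 0.95 with an offset of 0. The other chemokines were closer to 0, with CXCL2 at 0.35 and 0.40 on its 2 probes, IL8 at 0.07 and CXCL3 at −0.12.

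IL6 had a log2 ratio of −0.77 on the same array, with raw intensities of 889 and 864, and ranked 154th from the bottom. CSF2 read 0.17 and IL1B 0.19, both from dim spots (raw Cy5 intensities of 61.4 and 40.9). The members therefore did not share a direction with miR-140-5p. The direction of IL6 held against 0 under every alternative processing, and with median centring in place of loess it was −0.08 while the median of all genes stood at 0.35.

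With the opposite strand, miR-140-3p, all 8 members measured in T24 were below 0, beside 45.4% of all 17533 genes. The members' median was −0.75 beside 0.017 over all genes. The genes were chosen on these ratios too, so nothing is read from that excess. Only IL6 passed the rule, so 1 member was lower and none higher, beside 0.0856% of all genes lower and 0.0913% higher. IL6 had raw intensities of 1014 and 718, a log2 ratio of −1.27 or 2.42-fold lower, and it ranked 5th from the bottom of the array.

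**Figure D3:**
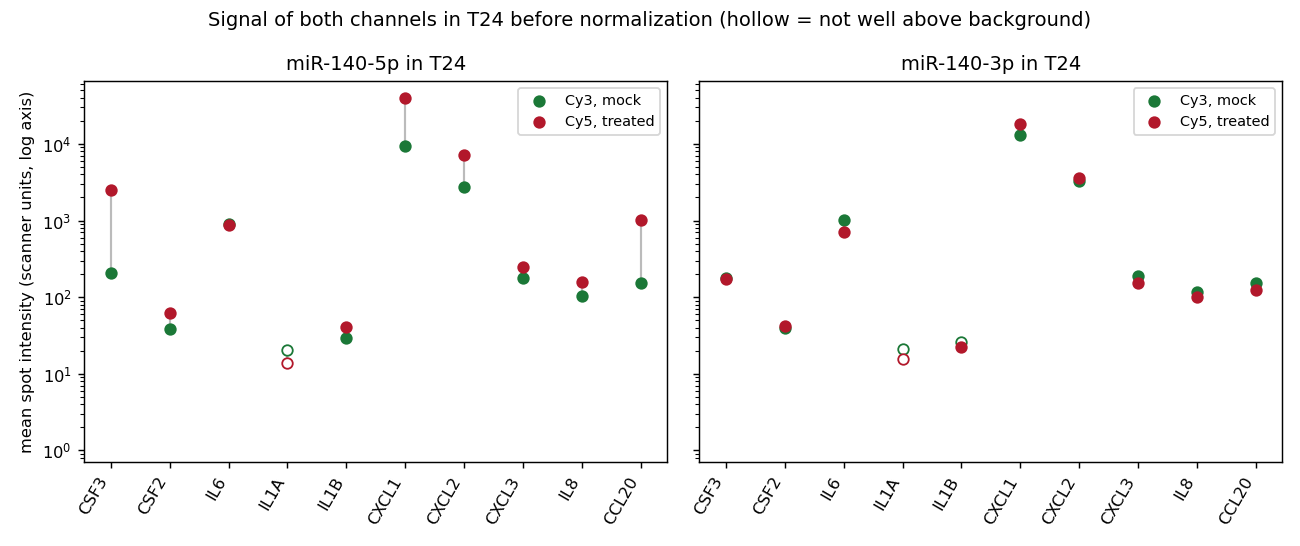
Raw mean spot intensity (log axis) of each gene in T24, green for the Cy3 mock and red for Cy5 after miR-140-5p (left) or miR-140-3p (right), hollow where not well above background. The mock points are nearly level between the panels, and the red points of CSF3 and CCL20 lie further above the green ones than those of the other genes with miR-140-5p and under them with miR-140-3p.

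The neutrophil chemokines came next to IL6 with miR-140-3p. CXCL2 read −0.87, CXCL3 −0.82, CXCL1 −0.75 and CCL20 −0.75, followed by CSF3 and IL8 at −0.61 each, and CSF2 at −0.08. Among these 7, CSF2 was the member nearest 0, and its raw intensities were 39.6 and 42.3. With median centring in place of loess, which moves the median of all genes to 0.45, 5 of the 8 members were below 0 and all 8 were below that median. CXCL1 and CXCL2 then read 0.39 and 0.06, and IL6 read −0.53 and did not pass.

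Second probes gave smaller ratios in the same direction with miR-140-3p. They read −0.15 for CSF3, −0.39 for CXCL1 and −0.57 for CXCL2. The second IL6 probe, designed on a predicted transcript, was not above background on any array.

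The 2 T24 arrays can be set side by side because their mocks were nearly the same, with a Pearson correlation of 0.999 across 17073 genes and a standard deviation of 0.0694 for the difference of log2 levels. This correlation is across genes, which are not independent replicates. The log2 ratio of CSF3 was higher by 3.31 with miR-140-5p than with miR-140-3p, that of CCL20 by 2.61, and that of CXCL1 by 1.58. CXCL2 followed with 1.23, CXCL3 with 0.70, IL8 with 0.68, IL6 with 0.50 and CSF2 with 0.24. Every measured member thus stood higher with the 5p strand than with the 3p strand, from 1 array each and with no test.

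Part of these differences lay in the mock channel for CXCL1, whose raw mock intensities were 9298 and 13167 at the brighter probe. Compared by Cy5 level alone, the difference was 1.17 for CXCL1 at both probes, 3.60 for CSF3 and 2.66 for CCL20. Raw Cy5 intensity of CSF3 was 14.9-fold and that of CCL20 8.20-fold between the strands, while their raw mock intensities differed 1.16-fold and 0.998-fold.

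With miR-532-5p in 786-O, CXCL1, IL6 and CSF2 were lower. All 7 measured members were below 0, beside 49.9% of all 15669 genes, and their median was −0.54 beside 0.00076. Of them 3 passed the rule downwards, beside 0.447% of all genes. None was higher, beside 0.357%. Here too the genes were chosen on these ratios, so nothing is read from the excess. All 7 were below 0 under each alternative background correction, scaling and source of the ratio.

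CXCL1 had the strongest ratio of the members in this line. Its brighter probe (GRCh37 chromosome 4, 74736850 to 74736909) had raw intensities of 1227 in the mock and 240 after miR-532-5p, a log2 ratio of −2.06 or 4.17-fold lower, and ranked 5th from the bottom of the array. The second CXCL1 probe (74735646 to 74735705) read 214 and 71.7, a log2 ratio of −1.06. IL6 (chromosome 7, 22771207 to 22771266) read 436 and 146, a log2 ratio of −1.21 or 2.31-fold lower. As a mean with its second probe, which was not above background, IL6 read −0.62 and did not pass. CSF2 (chromosome 5, 131411452 to 131411511), the member for which this line had the highest mock level, read 226 and 72.0, a log2 ratio of −1.12 or 2.18-fold lower.

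The remaining members were below 0 by less. CXCL2 read −0.54 and −0.55 on its 2 probes, IL8 −0.44, CCL20 −0.23 and CXCL3 −0.15. The last 2 were dim, with raw Cy5 intensities of 21.9 and 27.5, where the offset has most effect, and the scanner's own ratio without an offset put CCL20 at −1.82 and CXCL3 at −0.72. IL1B was well above background in the mock only, at least 1.15-fold lower after miR-532-5p. CSF3 was not above background in 786-O.

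**Figure D4:**
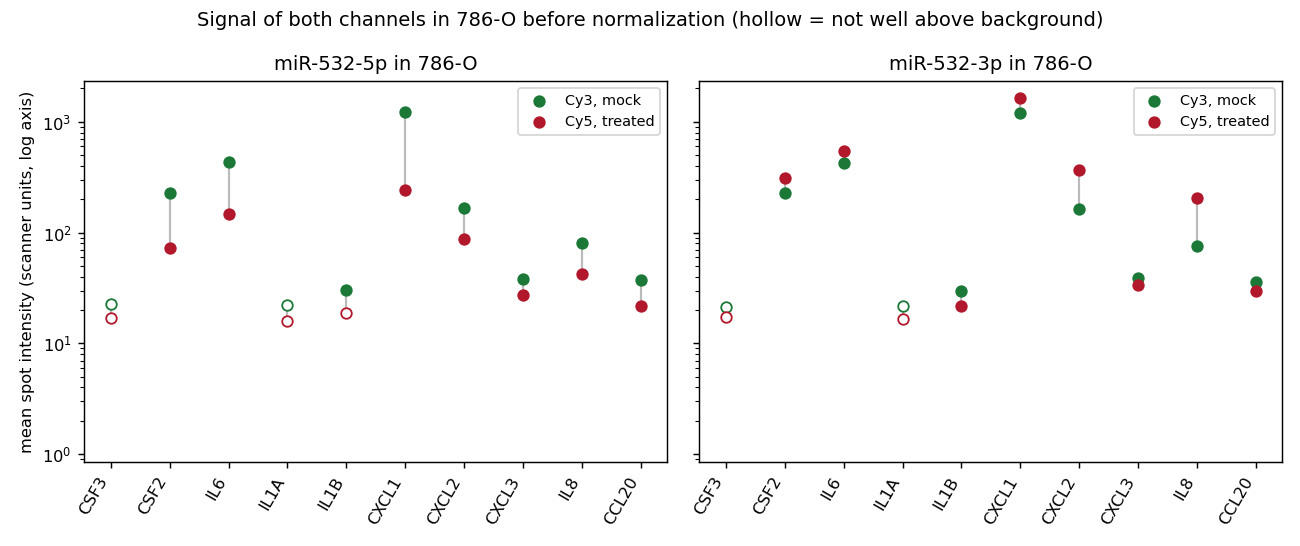
Raw mean spot intensity (log axis) of each gene in 786-O, green for the Cy3 mock and red for Cy5 after miR-532-5p (left) or miR-532-3p (right), hollow where not well above background. With miR-532-5p the red point lies under the green one for every measured gene, most of all for CXCL1, and with miR-532-3p the red points of CSF2, IL6, CXCL1, CXCL2 and IL8 lie above, those of CXCL2 and IL8 by the most.

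With miR-532-3p no member passed the rule in either direction, beside 0.0907% of all 15442 genes higher and 0.55% lower. IL8 came nearest, with raw intensities of 76.3 and 205 and a log2 ratio of 0.88 (rank 23 from the top), followed by CXCL2 at 0.69 and 0.47 on its 2 probes. The scanner's own ratio put IL8 at 1.37. The other 6 measured members lay between −0.14 and 0.06.

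The 786-O mocks of the 2 arrays correlated at 0.998 across 15183 genes. CXCL1 stood lower by 1.95 on the log2 scale with miR-532-5p than with miR-532-3p, IL8 by 1.32, CXCL2 by 1.23, CSF2 by 1.18 and IL6 by 1.13. CCL20 and CXCL3, both dim, differed by 0.10 and 0.03 in the same direction. In this line the 5p strand was therefore the one with the lower values, while in T24 the 5p strand of the other duplex was the one with the higher values.

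In PC3 no member passed the rule with any treatment. With bisamide for 24 h 7 members were measured and none was higher (0.182% of all genes) or lower (0.0156%). With bisamide for 48 h 5 were measured and again none was higher (0.0946%) or lower (0.021%). CXCL1 read −0.30 at 24 h and −0.76 at 48 h, with raw mock intensities of 982 and 1015 and Cy5 intensities of 1424 and 1043, and its second probe read −0.21 and −0.39. With median centring in place of loess CXCL1 read 0.45 and −0.03, while the median of all genes stood at 0.45 and 0.44. CXCL2 read 0.56 at 24 h and 0.00 at 48 h at the probe used throughout, but 0.00 and −0.19 at the second, which was the brighter of the pair in the PC3 mocks (raw intensities of 120 and 94.7 against 84.4 and 63.7). Its probes thus did not give the same 24 h value. IL1B read 0.20 and 0.14, CXCL3 0.35 and −0.02, and IL8 −0.29 and −0.26. At 24 h CSF2 and IL6 were measured too, at 0.00 and −0.07.

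With miR-125b-1-3p in PC3 7 members were measured, and none was higher (0.112% of all genes) or lower (0.0642%). IL1B had the lowest ratio, −0.59, from raw intensities of 1349 in the mock and 1536 in the treated cells. Both channels of that array exceeded both channels of the bisamide arrays for IL1B, where raw intensities were 152 to 372. CXCL1 read −0.51, IL8 −0.32, IL6 −0.06, CXCL3 0.22, CXCL2 0.25 and CSF2 0.34. With median centring in place of loess all 7 lay above 0, IL1B at 0.11 and CXCL1 at 0.20, while the median of all genes stood at 0.42. The mock of this array correlated with the bisamide mocks at 0.990 and 0.991 across genes, and those 2 with each other at 0.996.

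In C4-2 with miR-199-3p no member was well above background in either channel, so none could be counted, beside 0.115% of 15686 genes higher and 0.536% lower. Raw Cy5 intensities of CSF3 and IL6 were 17.6 and 16.9, under the median of that array's Cy5 channel (18.8).

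The genes around the members were read from lists written for this work. Over the 8 arrays, no gene of 22 NF-kappaB subunits and regulators passed the rule, although 18 to 22 of them were measured on each array. With miR-140-5p their median was −0.17, and the lowest was NFKBIE, an inhibitor of NF-kappaB, at −0.70. NFKBIA, the inhibitor that NF-kappaB itself induces, read −0.22 and −0.43 in T24 with the 5p and the 3p strand, and −0.20 and 0.22 in 786-O. TNFAIP3, an induced brake on the same pathway, read −0.31, −0.50, −0.12 and 0.26 in that order.

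Other NF-kappaB target genes (24 listed) passed the rule on several arrays. With miR-125b-1-3p in PC3, BIRC3, an inhibitor of apoptosis, read 1.31 and PLAU, the urokinase plasminogen activator, 1.23. With miR-532-5p, TNFAIP2, which TNF induces, read −1.09. PTX3, a secreted pentraxin, read 1.05 with miR-532-3p, and TFPI2, a protease inhibitor, 1.11 with miR-140-3p. With miR-140-5p none of the 17 measured targets passed, and their median was −0.06. The targets' median was −0.15 with miR-140-3p (11 of 17 below 0), −0.25 with miR-532-5p (14 of 20) and −0.09 with miR-532-3p (13 of 21).

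**Figure D5:**
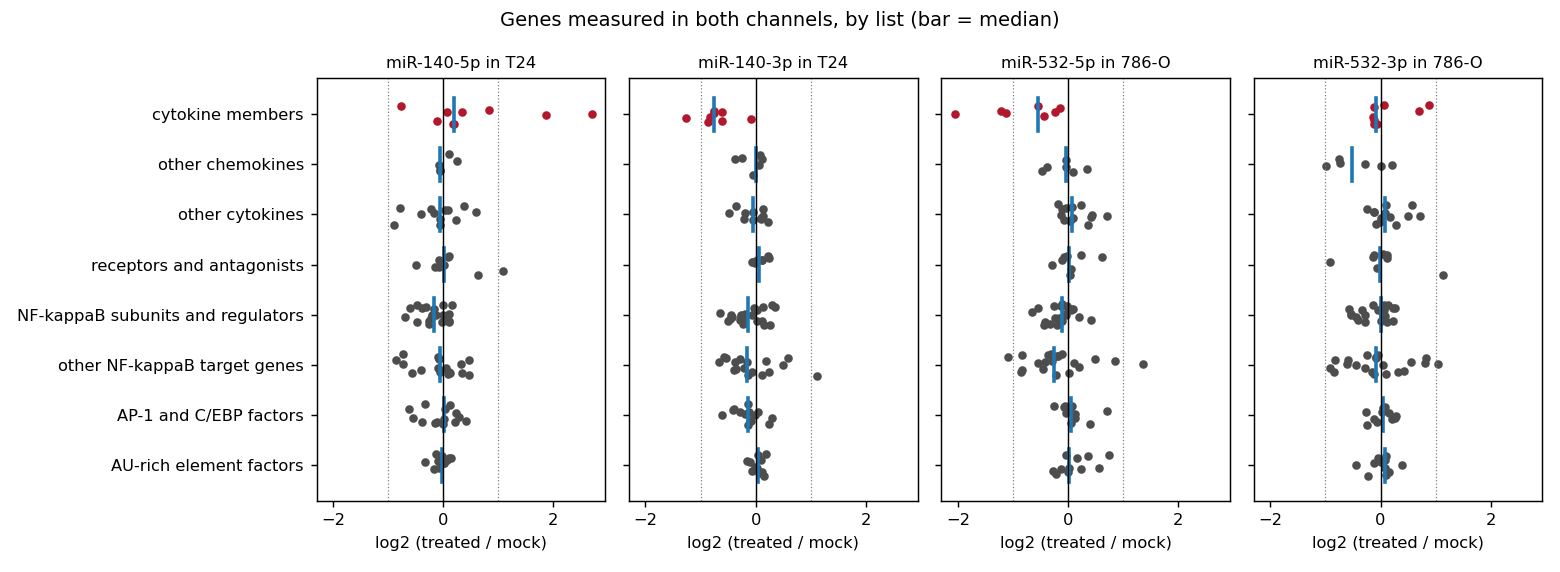
Log2 ratio of each gene measured in both channels, by list (rows, the cytokine genes in red), on the T24 and 786-O arrays, with a blue bar at each list's median and dotted lines at −1 and 1. With miR-140-3p the cytokine median of −0.75 lies to the left of the other lists' medians, and with miR-140-5p CSF3 and CCL20 are the 2 rightmost points.

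Receptors and antagonists (18 listed) gave 3 calls, all higher. TLR2, a receptor for bacterial lipoproteins, read 1.08 with miR-140-5p, IL1RAP, the accessory chain of the interleukin 1 receptor, 1.13 with miR-532-3p, and IL1RN, the interleukin 1 receptor antagonist, 1.05 with miR-199-3p. CSF3R, the receptor of CSF3, was measured in T24 and read 0.02 (5p strand) and −0.06 (3p strand). CCR6, the receptor of CCL20, read 0.11 and 0.12 on these arrays.

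Among 17 other chemokines on the array, CXCL5, a further ligand of CXCR2, was the gene called, at 1.09 with miR-125b-1-3p. On the miR-140-3p array the 6 measured other chemokines had a median of 0.01, beside −0.75 for the members. Of 19 other cytokines none passed on any array. AP-1 and C/EBP factors (15 listed) gave CEBPB, which drives several cytokine genes, at 1.21 with bisamide for 24 h, and FOS, a subunit of AP-1, at −1.12 with miR-199-3p. None of 11 factors that bind AU-rich elements passed on any array.

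The genes whose ratios over the 8 arrays were most like those of CSF3 were ADAM8 (Pearson r 0.955), HK2 (0.909), PXDN (0.90), SPNS2 (0.842) and PODXL (0.717), among 321 genes measured on all arrays with a log2 ratio past 1.0 in size on at least 1. All 5 had their highest ratio with miR-140-5p, with ADAM8 at 1.96, SPNS2 at 1.70, PXDN at 1.56, PODXL at 1.42 and HK2 at 1.11. CSF3 itself was well above background on the 2 T24 arrays only, and its ratios on the other 6 were those of spots at background, between −0.07 and 0.09. The correlations therefore describe little more than a high ratio with miR-140-5p. ADAM8 is a membrane-bound metalloprotease and HK2 a hexokinase.

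The stretch before the start of transcription is shown for the 5 members that hold the NF-kappaB consensus, in capitals, to set members that moved apart beside each other. Promoters of 9 members were matched by symbol in the RefSeq table (GRCh38.p14), CSF3 not among them, and each covered 250 bases before to 50 after the start. The consensus, searched on both strands, was in 5 of the 9 and in 11.3% of 35116 promoters of that length. It was read as GGGRNNYYCC, with R for A or G, Y for C or T and N for any base, and had to match in full. The IL8 promoter holds a stretch that differs from it by a base and was not counted. A promoter without a match may therefore still hold a site for NF-kappaB.
CXCL1: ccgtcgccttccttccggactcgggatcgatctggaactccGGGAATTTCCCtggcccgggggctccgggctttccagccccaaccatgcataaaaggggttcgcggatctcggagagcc
CXCL2: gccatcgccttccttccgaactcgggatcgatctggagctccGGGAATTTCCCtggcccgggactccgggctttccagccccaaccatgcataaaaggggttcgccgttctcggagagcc
CXCL3: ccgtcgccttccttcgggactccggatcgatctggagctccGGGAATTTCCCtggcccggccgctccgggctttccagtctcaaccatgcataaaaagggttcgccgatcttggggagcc
CCL20: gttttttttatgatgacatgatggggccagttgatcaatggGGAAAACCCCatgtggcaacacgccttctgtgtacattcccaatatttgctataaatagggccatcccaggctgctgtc
IL6: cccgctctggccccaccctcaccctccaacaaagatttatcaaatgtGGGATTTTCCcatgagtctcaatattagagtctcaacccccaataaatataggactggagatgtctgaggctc
Each line runs 5′ to 3′ on the gene's strand over the 120 bases before the start, at chr4:73869273-73869392 (plus) for CXCL1, chr4:74099196-74099315 (minus) for CXCL2, chr4:74038690-74038809 (minus) for CXCL3, chr2:227813722-227813841 (plus) for CCL20 and chr7:22727080-22727199 (plus) for IL6.

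In CXCL1 and CXCL3 the capitals span bases −79 to −69, where the consensus matches on both strands in overlapping positions, and in CXCL2 bases −78 to −68. Aligned on the consensus without gaps, CXCL1 and CXCL3 were identical at 109 of 120 bases (90.8%), and CXCL1 and CXCL2 at 80 of 119 (67.2%). CXCL2 has a base fewer than CXCL1 shortly after the consensus, so past that base the bases compared are out of register. The 67.2% therefore understates the likeness of CXCL1 and CXCL2, and the percentages do not rank these pairs. CXCL1 and IL6, which were both lower with miR-532-5p, matched at 37.7%. Within this set CCL20 was higher and IL6 below 0 with miR-140-5p, and both promoters hold the consensus. The part of the consensus in these ratios was not tested. The AP-1 motif TGANTCA was found in IL1A and IL8 (7.71% of all promoters), and the C/EBP motif TTNNGNAA in 4 of the 9 (36.8%). These are matches of letters in this window and say nothing of binding.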

How the data were processed

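RNA of 8 treated cultures and of mock cells was compared on 8 2-colour arrays, which shared 1 slide and 1 scan. Per the file headers, the authors scanned them with Agilent Feature Extraction 11.5.1.1 and deposited mean spot intensities and median background intensities on a linear scale, flags for detection and outliers, and a log10 ratio of Cy5 over Cy3 made by the scanner software. The deposited series table held that log10 ratio unchanged (largest difference 0, column medians 0). The files name GRCh37, for which no annotation was used, so probes are placed by coordinate only.

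Intensities were corrected with normexp (offset 50) and normalized by loess within arrays in limma 3.58.1 (R 4.3.3), which was tested on simulated data, and Aquantile between arrays for channel levels. These log2 values were computed from the deposited intensities. Control and outlier spots were left out, and a gene was represented by its probe of highest mean intensity over the 8 arrays. A call needed both channels well above background and a log2 ratio past 1.0 in size. No p-value was made, since a group held 1 array. Where 1 channel alone stood above background a lower bound on the fold is given, which is open to dye bias without swapped dyes.

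The members, gene lists, rules and alternatives were chosen with earlier results of these data known. The genes named were all 10 members, up to 4 called genes per list and array, and the 5 genes most like CSF3. A further gene that this rule names is not reported here. Genes of the lists named beside these, such as NFKBIA, NFKBIE, TNFAIP3, CSF3R and CCR6, were chosen after their values were seen. Alternatives were an offset of 0, plain subtraction, no background correction, median centring, the scanner's ratio, the series table, the mean over probes, each ratio minus its median over other arrays, a threshold of 1.5, other detection filters, and the 75th percentile for mock levels.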

Additional observations from a re-analysis of the deposited data

How the results depend on the processing

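No paired analysis was possible because a group is 1 array only, and for the same reason no array could be left out. Among 491 member ratios recomputed under the alternatives no called value changed sign, 127 moved by less than the spread between spots and 364 by more. With bisamide for 24 h the count of members higher was 1 with median centring (0 otherwise as reported). With miR-532-5p the count lower, 3 as reported, was 5 with the scanner's own ratio and with the series table, 4 with an offset of 0 or plain subtraction, 2 with the mean over probes (IL6 lost its call) and 1 at a threshold of 1.5. With miR-532-3p the count higher, 0 as reported, was 2 with median centring and 1 with an offset of 0, plain subtraction, no background correction, the scanner's ratio, the series table or each ratio minus its median over the other arrays. With miR-140-5p the count higher, 2 as reported, was 4 with median centring and 3 for each ratio minus its median over the other arrays, where CXCL1 passed. With miR-140-3p the count lower, 1 as reported, was 3 with an offset of 0, plain subtraction, the scanner's ratio or the series table, 2 without background correction, and 0 with median centring, with the mean over probes (IL6 is then averaged with a probe that is not above background) or at a threshold of 1.5. Median centring moved the median of all measured genes to between −0.03 and 0.45. It also changed the side of 0 of members: 5 of 8 were above 0 with miR-532-3p against 3 as reported, 7 of 7 with miR-125b-1-3p against 3 (IL1B from −0.59 to 0.11, CXCL1 from −0.51 to 0.20), and 3 of 8 with miR-140-3p against 0 (CXCL1 from −0.75 to 0.39, CXCL2 from −0.87 to 0.06, and CSF2). With bisamide for 24 h, 1 of 7 was below 0 against 3 as reported (CXCL1 from −0.30 to 0.45, IL8 from −0.29 to 0.09). With bisamide for 48 h, 3 of 5 were above 0 against 1. With miR-140-5p, 8 of 9 were above 0 against 7 (CXCL3 from −0.12 to 0.36). Of 8 mock level differences recomputed 4 moved, and of 8 strand differences 7 did. The cause of these shifts was not tested beyond the construction of each alternative. Signal close to background leaves IL1A with no ratio, CSF3 with a ratio on 2 of the 8 arrays and CCL20 on 4, and IL1B on 5.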

Other observations

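Both miR-140 strands gave IL6 a ratio below 0 in T24 (−0.77 and −1.27), the member with the lowest ratio on each of these arrays. The labels do not say whether both mocks came from the same culture. In PC3, IL1B differed more between mocks (raw intensities of 152 to 1349) than between any mock and its treated channel.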
